A study of Homo sapiens with 8 samples.

Results

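The genes described here are 9 components of the MHC class I antigen presentation pathway, taken by name from a table of 58735 genes: the heavy chains HLA-B, HLA-C and HLA-E, the light chain B2M, the peptide transporter subunits TAP1 and TAP2, the loading factor TAPBP, and the immunoproteasome subunits PSMB8 and PSMB9. All 9 were among the 17413 genes with enough counts to be tested by edgeR. RNA was sequenced from SV-HUC1, an SV40-immortalised line of normal human urothelial cells. There were 4 cultures kept for 24 h with 20 mU per ml of glucose oxidase, an enzyme that produces hydrogen peroxide from glucose, and 4 untreated cultures that served as controls. All cultures were of this single line, and no culture had peroxide alone or inactive enzyme, so an effect of peroxide and another effect of the enzyme cannot be told apart. Replicates of each group are numbered 1 to 4.

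MHC class I molecules carry short peptides of the cell's own proteins to its surface, where CD8+ T cells read them and natural killer cells sense their loss. Proteasomes cut the peptides, the TAP transporter moves them into the endoplasmic reticulum, and tapasin helps load them onto a heavy chain paired with beta-2-microglobulin. Most genes of the pathway are expressed at a basal level in epithelial cells and are induced by interferons and NF-kB, through the transactivator NLRC5 and interferon regulatory factors.

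Libraries held 27016035, 21437267, 25001031 and 27183692 counts in treated cultures and 21653952, 21709190, 23543702 and 23473036 in controls. The 10 urothelial markers, of which 9 could be tested, summed to 2041 to 2689 CPM (counts scaled to library size) in treated cultures and 2298 to 3706 CPM in controls. The largest part of this sum was KRT7 (866.2 to 1899 CPM over all libraries). TP63 was scarce, at 0.048 to 1.47 CPM over all libraries. Of these, the basal keratin KRT5 was lower and the transcription factor GATA3 higher in treated cultures (edgeR with block, adjusted p below 0.05), and UPK3A had 0 counts in every library but control 3. Of 12 leukocyte markers, 10 lay below 1 CPM in every library, CD2 and TYROBP were at 0 throughout, and the list summed to 5.12 to 6.93 CPM in treated cultures and 7.91 to 10.5 CPM in controls. Fibroblast markers summed to 15.8 to 27.0 CPM in treated cultures and 17.0 to 26.8 CPM in controls. Most of this sum was COL1A1 (14.28 to 26.24 CPM over all libraries), and 4 of the 6 lay below 1 CPM in every library. Endothelial markers summed to 3.00 to 6.05 CPM in treated cultures and 3.37 to 5.27 CPM in controls, with 3 of 5 below 1 CPM in every library. Of the leukocyte markers, 2 could be tested and CSF1R was lower in treated cultures. The part of these markers in the results was not tested. Because these are bulk cultures, fewer cells expressing a gene and less RNA of it per cell cannot be told apart.

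In all, 8 of the 9 genes lie on chromosome 6 and B2M lies on chromosome 15 (GRCh38, GENCODE release 29). HLA-E spans chr6:30489467-30494205 on the plus strand, HLA-C chr6:31268749-31272130 and HLA-B chr6:31269491-31357188 on the minus strand, and TAPBP chr6:33299694-33314387 on the minus strand. TAP2 (chr6:32821833-32838780), PSMB8 (chr6:32840717-32844703) and TAP1 (chr6:32845209-32853978) follow each other on the minus strand, with PSMB9 on the plus strand (chr6:32844136-32859585). B2M spans chr15:44711487-44718877 on the plus strand.

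The promoters of 4 genes are shown, TAP1 and PSMB9 for their position and B2M and TAP2 for their values. TAP1 and PSMB9 are transcribed away from each other from starts 488 bases apart, B2M was lower in each treated culture than in the control of its number, and TAP2 was the only gene whose groups did not overlap. Each sequence is from RefSeq (GRCh38.p14), from 250 bases before to 50 after the start, written 5′ to 3′ on the gene's strand: TAP1 chr6:32853655-32853954 (minus), PSMB9 chr6:32853942-32854241 (plus), B2M chr15:44711267-44711566 (plus) and TAP2 chr6:32838690-32838989 (minus). Capitals mark matches, on either strand, to an interferon-response type motif (GAAANNGAA), an NF-Y box (CCAAT), a CRE-like X2 box (TGACGC) and the NF-kB consensus; adjoining capitals can hold overlapping matches.
TAP1: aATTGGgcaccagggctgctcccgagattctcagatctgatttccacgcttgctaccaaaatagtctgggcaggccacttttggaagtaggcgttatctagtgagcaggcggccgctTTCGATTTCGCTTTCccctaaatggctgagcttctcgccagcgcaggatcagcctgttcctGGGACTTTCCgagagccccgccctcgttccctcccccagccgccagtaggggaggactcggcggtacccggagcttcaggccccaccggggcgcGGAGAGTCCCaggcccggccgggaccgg
PSMB9: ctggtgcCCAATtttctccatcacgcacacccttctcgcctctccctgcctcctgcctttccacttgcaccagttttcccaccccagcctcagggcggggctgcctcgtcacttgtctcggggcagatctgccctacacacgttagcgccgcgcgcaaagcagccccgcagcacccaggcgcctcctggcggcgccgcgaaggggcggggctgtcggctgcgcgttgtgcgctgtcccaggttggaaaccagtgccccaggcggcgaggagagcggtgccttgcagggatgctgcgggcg
B2M: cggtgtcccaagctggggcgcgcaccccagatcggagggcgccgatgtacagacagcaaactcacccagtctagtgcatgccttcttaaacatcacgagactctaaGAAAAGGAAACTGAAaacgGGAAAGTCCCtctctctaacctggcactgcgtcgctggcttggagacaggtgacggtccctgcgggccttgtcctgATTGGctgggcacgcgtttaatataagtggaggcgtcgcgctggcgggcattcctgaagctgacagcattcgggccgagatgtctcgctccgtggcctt
TAP2: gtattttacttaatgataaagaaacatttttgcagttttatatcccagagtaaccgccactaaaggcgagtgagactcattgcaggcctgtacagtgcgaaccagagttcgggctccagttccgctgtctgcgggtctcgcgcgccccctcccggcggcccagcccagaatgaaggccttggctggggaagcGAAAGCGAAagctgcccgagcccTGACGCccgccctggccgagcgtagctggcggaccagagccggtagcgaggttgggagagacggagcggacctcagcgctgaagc

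Of the 9 genes, 8 have a RefSeq promoter entry, with 10 entries in all, since TAP1 and PSMB8 each have a further entry. A gene is counted below if any of its entries matches, while the shares of all promoters count single entries. For TAP1 and for PSMB8, 1 entry held no match. The interferon-response type motif was in 5 of these 8 (B2M, TAP1, TAP2, TAPBP and PSMB8), against 8.11% of 35116 promoters of the same length. The NF-kB consensus was in 5 (HLA-B, HLA-C, B2M, TAP1 and TAPBP), against 5.91% of all, and CCAAT was in 5 (HLA-B, HLA-C, B2M, TAP1 and PSMB9), against 34.6%. TGACGC was in HLA-B, HLA-C and TAP2, against 9.14%. In B2M, TAP1 and TAPBP the interferon-response type motif matched at a pair of overlapping positions, at -133 to -119 from the start in TAP1 and -144 to -130 in B2M. The CCAAT match in TAP1 and that in PSMB9 are the same box, since the windows overlap there. These matches are letters in a window and were given no test.

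After glucose oxidase none of the 9 class I genes passed the test in edgeR with TMM scaling of libraries, and their values pointed in different directions. TAP2 passed in 1 fit scaled by total counts, given below. In a quasi-likelihood fit that takes the replicate number as a block, 0 of the 9 had an adjusted p below 0.05, while 14.5% of all 17413 tested genes did (1308 higher and 1213 lower; 1675 and 535 when scaled by total counts). At an unadjusted p below 0.05 there was 1 of the 9, TAP2, beside 28.9% of all tested genes, and DESeq2 with the block called 1, B2M. Fitted values ran from a log2 value of -0.41 for B2M to 0.37 for TAP2, with 4 genes above 0 and 5 below. Their median was -0.07, beside -0.01 for all genes. The 95% intervals of all 9 lay inside a 2-fold change in either direction, from a lowest bound of -0.83 (B2M) to a highest of 0.65 (TAP2), which leaves room for changes smaller than that, and a p above the threshold does not show that levels were equal. The interval of B2M reached past 2-fold in the fit without the block (-1.16 to 0.41) and with the block without replicate 4 (-1.04 to 0.04). Without the block edgeR called 0% of all genes and none of the 9, with adjusted p-values for these of 0.664 to 0.929, 1284 genes at an unadjusted p below 0.05, and 1 of the 9 genes (TAP2) among them. The same test in DESeq2 called 36 genes higher and 40 lower, with 0 of the 9 among them. A gene is said below to have risen or fallen only from the blocked edgeR fit, unless another fit is named. The fit without the block, which called 0% of all genes, had been planned as the main one, with the blocked fit beside it. Equally numbered libraries deviated together, but this does not show that they are pairs, so such calls hold only if the block is right.

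**Figure D1:**
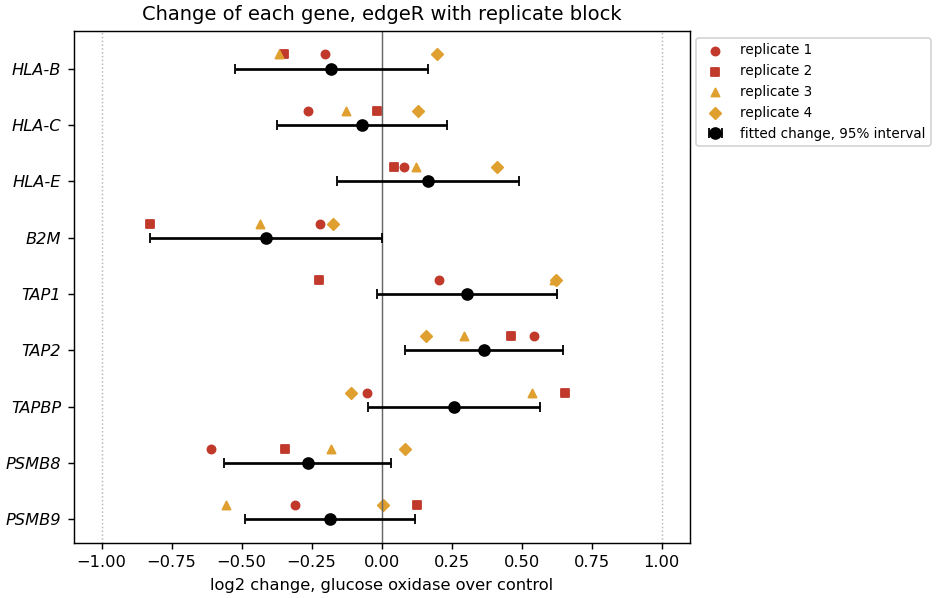
Fitted log2 change of each gene, treated over control, with its 95% interval (black; edgeR with replicate block) and the log2 difference of each pair of equal replicate number (coloured symbols). Dotted lines mark a 2-fold change. All 9 intervals lie between them, and only the interval of TAP2 lies wholly on one side of 0.

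The classical heavy chain genes, which encode the peptide-binding chains, were lower in treated cultures on average, but by less than the spread. HLA-B measured 919.2, 572.7, 658.6 and 688.3 CPM in treated cultures 1 to 4, against 1057, 729.1, 848.8 and 600.1 CPM in controls 1 to 4. The groups overlapped widely, and treated culture 4 stood above its control while the other three stood below. Treated cultures averaged 709.7 ± 148.0 CPM and controls 808.7 ± 194.1 CPM (SD, n = 4 each), a log2 change of -0.18 (95% interval -0.52 to 0.16; edgeR with block, adjusted p = 0.520). HLA-C measured 287.1, 206.8, 143.8 and 160.1 CPM in treated cultures, against 345.0, 209.4, 157.1 and 146.5 CPM in controls. Replicate 1 was highest in both groups and replicates 3 and 4 lowest, whatever the treatment. The log2 change was -0.07 (interval -0.37 to 0.23; edgeR with block, adjusted p = 0.803), and it changed sign in 5 alternative fits given in the closing section.

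HLA-E, the non-classical chain that presents leader peptides of other class I chains to natural killer receptors, measured 685.7, 555.7, 434.7 and 451.8 CPM in treated cultures, against 648.4, 539.6, 399.0 and 340.0 CPM in controls. Every treated culture stood above the control of its number, while the groups overlapped. The log2 change was 0.16 (interval -0.16 to 0.49; edgeR with block, adjusted p = 0.538). The sequences of HLA genes are alike: 2.72% of the 50-base windows of HLA-B transcripts, 5.38% of those of HLA-C and 4.34% of those of HLA-E also occur in another gene of the reference. HLA-B and HLA-C also share 35 exon bases, and 17.8% of the exon bases of HLA-B lie opposite AL671883.2, which had 0 CPM in every library. Their counts are uncertain at such bases, and the alleles of SV-HUC1 may differ from the reference.

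B2M encodes beta-2-microglobulin, the light chain that every class I heavy chain needs to reach the surface, and was the most abundant of the 9. It measured 8602, 4427, 9622 and 8881 CPM in treated cultures, against 10030, 7851, 13010 and 10020 CPM in controls. Each treated culture lay below the control of its number, with treated culture 2 far below all others, and the groups overlapped because control 2 was below 3 treated cultures. Treated cultures averaged 7883 ± 2344 CPM and controls 10228 ± 2118 CPM (SD, n = 4 each). The log2 change was -0.41 (SE 0.20, interval -0.83 to 0.00058; edgeR with block, adjusted p = 0.174). DESeq2 with the block, which called 17.7% of 14327 genes, called B2M lower (-0.42, SE 0.14, adjusted p = 0.0234). That call was lost without replicate 2 (-0.28, adjusted p = 0.266 in DESeq2) and without replicate 3 (adjusted p = 0.166 in DESeq2). By share of all counts, B2M took 0.945%, 0.514%, 0.916% and 0.847% in treated cultures, against 1.07%, 0.920%, 0.999% and 0.888% in controls, where treated culture 2 again stood apart.

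**Figure D2:**
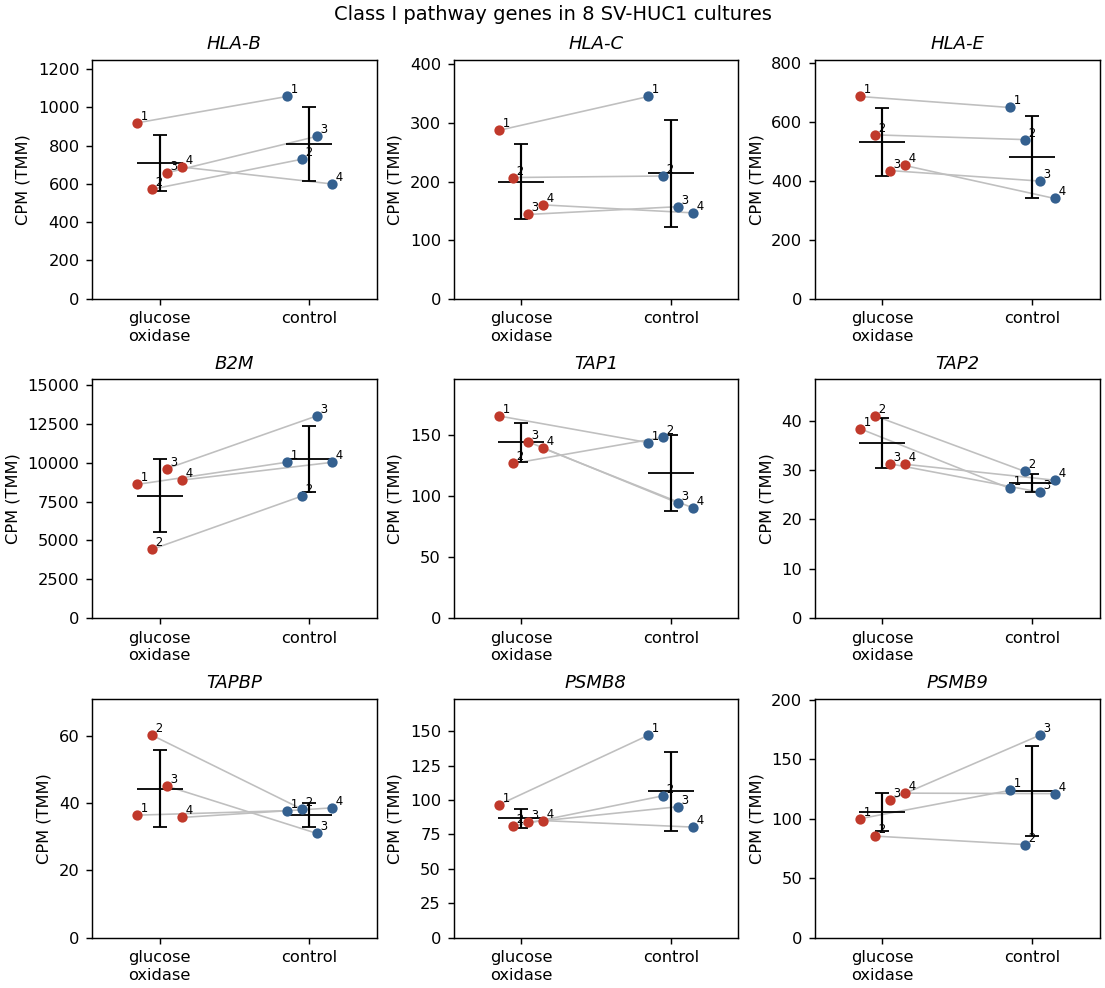
TMM-normalised CPM of the 9 genes in each library, treated cultures at the left and controls at the right of each panel. Points carry the replicate number, grey lines join equal numbers, and black bars are mean ± SD (n = 4). Only TAP2 has all treated points above all control points.

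TAP1 and TAP2 together form the ATP-driven pump that carries peptides into the endoplasmic reticulum. TAP2 measured 38.36, 40.95, 31.26 and 31.16 CPM in treated cultures, against 26.28, 29.72, 25.51 and 27.93 CPM in controls. All 4 treated cultures lay above all 4 controls, a separation that 5.02% of all tested genes showed in one direction or the other. Treated cultures averaged 35.4 ± 4.99 CPM and controls 27.4 ± 1.87 CPM (SD, n = 4 each), a 1.29-fold level (interval 1.06 to 1.57). The change was 0.37 on the log2 scale (SE 0.14) and did not pass (edgeR with block, adjusted p = 0.0711). It passed when libraries were scaled by total counts (0.47; edgeR with block, adjusted p = 0.0336), a scaling under which the median of all genes shifted to 0.101.

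TAP1 measured 165.6, 126.7, 144.3 and 139.0 CPM in treated cultures, against 143.7, 148.1, 94.22 and 90.17 CPM in controls. Controls 3 and 4 were below every treated culture, while controls 1 and 2 lay among them. Treated cultures averaged 143.9 ± 16.2 CPM and controls 119.1 ± 31.1 CPM (SD, n = 4 each), and the log2 change was 0.30 (SE 0.16, interval -0.02 to 0.62; edgeR with block, adjusted p = 0.199). In DESeq2 with the block and without replicate 2, TAP1 was called higher (0.48, adjusted p = 0.0478). Without replicate 3 or replicate 4 it was not (0.21 and 0.20, adjusted p = 0.581 and 0.550 in DESeq2), and the edgeR value with the block was 0.50 without replicate 2, 0.20 without replicate 3 and 0.19 without replicate 4. Counting of TAP2 is uncertain where its exons meet another gene: 32.3% of its exon bases are shared with AL669918.1 on the same strand, which had 0 CPM in 7 libraries and 0.042 CPM in treated culture 3.

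TAPBP encodes tapasin, which holds the heavy chain at the transporter while a peptide is loaded. It measured 36.47, 60.28, 45.12 and 35.79 CPM in treated cultures, against 37.82, 38.26, 31.04 and 38.64 CPM in controls. Treated cultures 2 and 3 stood above all controls, and treated cultures 1 and 4 were level with them. The log2 change was 0.26 (interval -0.05 to 0.57; edgeR with block, adjusted p = 0.263), and 0.14 without replicate 2 and 0.17 without replicate 3.

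PSMB8 and PSMB9 encode catalytic subunits that replace PSMB5 and PSMB6 in the immunoproteasome and favour peptides that class I chains bind. PSMB8 measured 96.41, 81.14, 83.86 and 85.04 CPM in treated cultures, against 147.1, 103.1, 95.16 and 80.32 CPM in controls. Treated cultures lay close together (mean 86.6 ± 6.73 CPM), and controls spread from below that range to far above it (106.4 ± 28.7 CPM; SD, n = 4 each). The log2 change was -0.26 (interval -0.56 to 0.03; edgeR with block, adjusted p = 0.235), and -0.13 without replicate 1 and -0.15 with total-count scaling. PSMB9 measured 99.98, 85.36, 115.8 and 121.5 CPM in treated cultures, against 123.8, 78.24, 170.2 and 121.1 CPM in controls. Controls held both the lowest and the highest value, and pairs of equal number went both ways (log2 change -0.18, interval -0.49 to 0.12; edgeR with block, adjusted p = 0.446). The value was -0.06 without replicate 3 and -0.07 with total-count scaling.

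Whether strand was used in counting is not stated, and the antisense gene PSMB8-AS1 shares 20.6% of the exon bases of PSMB8 and 9.49% of those of TAP1. It averaged 11.3 ± 3.85 CPM in treated cultures and 16.3 ± 8.31 CPM in controls (SD, n = 4 each; log2 change -0.45, edgeR with block, adjusted p = 0.0564). PSMB8 and PSMB9 share 139 exon bases on opposite strands. Reads of these partners cannot be told apart if strand was not used. PSMB8-AS1 also shares 5.66% of the exon bases of PSMB9 on the same strand, where strand does not separate them.

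Whether immunoproteasome subunits shifted against the constitutive subunits they replace was asked by ratios of the deposited FPKM (counts per gene length and library size). PSMB8 over PSMB5 was 0.372, 0.444, 0.238 and 0.207 in treated cultures, against 0.466, 0.523, 0.152 and 0.176 in controls. PSMB9 over PSMB6 was 0.579, 0.413, 0.580 and 0.537 in treated cultures, against 0.581, 0.462, 0.594 and 0.461 in controls. PSMB10 over PSMB7 was 0.234, 0.196, 0.124 and 0.112 in treated cultures, against 0.360, 0.402, 0.110 and 0.101 in controls. All 3 overlapped between groups, and the first and the last were higher in replicates 1 and 2 than in 3 and 4 of either group. The two-sided exact permutation p-values, ignoring replicate number, were 0.857, 1 and 0.657 (n = 4 each), each 1 after adjustment over the 3 ratios. The smallest p that permutation test allows is 0.0286. In pairs 1 to 4 the log2 difference was -0.33, -0.24, 0.65 and 0.24 for PSMB8 over PSMB5. For PSMB10 over PSMB7 it was -0.62, -1.04, 0.18 and 0.15, and PSMB9 over PSMB6 also went both ways. An exact sign-flip permutation test within the 4 pairs gave p = 0.75 for the first ratio and 0.5 for the last. That exact permutation test cannot go below 0.125, so it cannot decide whether a ratio shifted.

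Per gene length, the order of levels was the same in outline in both groups. B2M averaged 1281 FPKM in treated cultures and 1667 FPKM in controls, HLA-B 229 FPKM in treated cultures and 261 FPKM in controls, HLA-E 176 FPKM in treated cultures and 159 FPKM in controls, and HLA-C 78.2 FPKM in treated cultures and 84.1 FPKM in controls. The heavy chains thus stood between the light chain above and the processing genes below. PSMB9 followed with 33.9 FPKM in treated cultures and 39.9 FPKM in controls, then TAP1 with 29.5 FPKM in treated cultures and 24.3 FPKM in controls, and PSMB8 with 28.4 FPKM in treated cultures and 35.0 FPKM in controls. TAPBP had 8.62 FPKM in treated cultures and 7.10 FPKM in controls, and TAP2 had 5.45 FPKM in treated cultures and 4.22 FPKM in controls. The ranges of HLA-B and HLA-E overlapped in both groups, as did those of PSMB9, TAP1 and PSMB8, and those of HLA-E and HLA-C overlapped in controls. By mean CPM, B2M ranked 2 among all genes, and by mean FPKM 12. The length used is all annotated exon bases, so levels per length are less certain where exons are shared, as 32.3% of those of TAP2 are.

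By pair of equal number, 3 genes kept 1 direction in all 4: TAP2 and HLA-E were higher and B2M lower. Of all tested genes, 16.9% were higher and 17.1% lower in all 4 pairs. TAP2 differed by 0.54, 0.46, 0.29 and 0.16 on the log2 scale in pairs 1 to 4, HLA-E by 0.08, 0.04, 0.12 and 0.41, and B2M by -0.22, -0.83, -0.43 and -0.17. The other 6 genes had pairs on both sides of 0. The differences of TAP1 were 0.20, -0.23, 0.61 and 0.62, with 1 pair below 0. In a single fit of all libraries that let the effect differ, its log2 value was 0.00 for replicates 1 and 2 but 0.62 for replicates 3 and 4. The difference of these effects was 0.62 (SE 0.27, unadjusted p = 0.0414, edgeR adjusted p = 0.578), and none of the 9 genes passed this test, against 0.23% of all genes.

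HLA-C and HLA-E differed more between replicates than between treated cultures and controls. An earlier look at these data had set replicates 1 and 2 of both groups apart from replicates 3 and 4, a division that is not in the labels. HLA-C ran from 206.8 to 345.0 CPM in replicates 1 and 2 of both groups and from 143.8 to 160.1 CPM in replicates 3 and 4. HLA-E ran from 539.6 to 685.7 CPM in replicates 1 and 2 and from 340.0 to 451.8 CPM in replicates 3 and 4. These 2 of the 9 did not overlap between the sets, a separation that 36.6% of all tested genes showed. The mean log2 difference, replicates 1 and 2 minus 3 and 4, was 0.75 for HLA-C and 0.58 for HLA-E, and -0.47 for B2M and -0.45 for PSMB9, which were higher in replicates 3 and 4. With a term for these sets in place of the block, edgeR called 6.79% of all genes and none of the 9, with adjusted p = 0.10 for TAP2 and 0.24 to 0.82 for the others (edgeR).

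**Figure D3:**
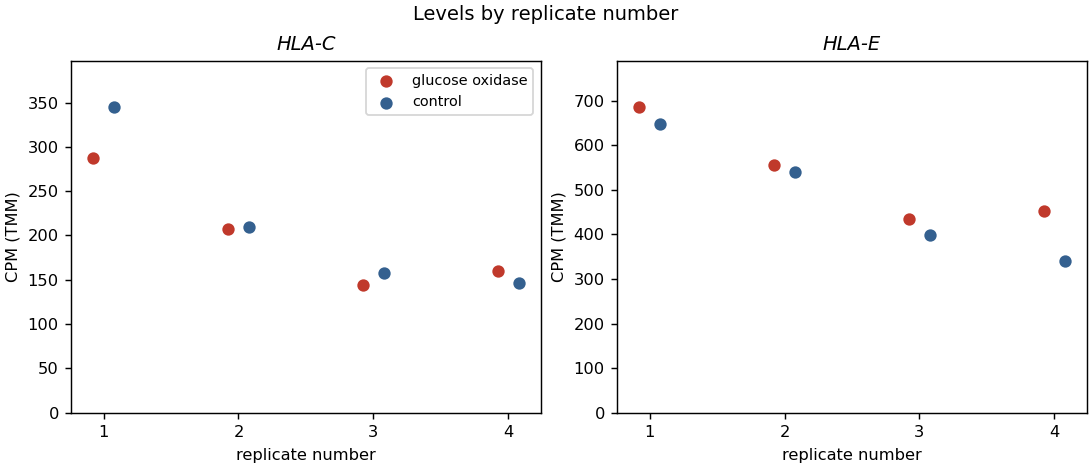
HLA-C and HLA-E CPM by replicate number, treated cultures in red and controls in blue. Replicates 1 and 2 lie above replicates 3 and 4 in either group.

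The 9 genes also did not vary as a block across the 8 libraries. Over these, which share their replicate sets and scaling, log2 CPM correlated at 0.91 between HLA-C and HLA-E, 0.86 between HLA-B and PSMB8, 0.81 between HLA-E and TAP1, and 0.79 between B2M and PSMB9. B2M ran against TAPBP (-0.87) and TAP2 (-0.82), and PSMB9 against TAP2 (-0.66) and against TAP1 (-0.57), with which it shares the promoter region shown above. The protein-coding genes most like TAP1, of 10872 compared, were MID1IP1 (r = 0.982), IFRD1 (0.972), PTX3 (0.969), FST (0.968) and MAFF (0.964). Of these, PTX3, FST and MAFF rose in treated cultures (log2 change 0.84, 0.79 and 0.86; edgeR with block, adjusted p = 0.0177, 0.0216 and 0.00822), and MID1IP1 and IFRD1 had values of 0.30 and 0.48 (adjusted p = 0.180 and 0.0807).

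Several genes of NF-kB and interferon signalling, inhibitors such as SOCS3 among them, passed the test. Of 17 genes of NF-kB and interferon signalling, 10 rose and none fell (edgeR with block), where 14.5% of all tested genes were called. The median of the 17 was 0.51, beside -0.01 for all genes. The list was chosen with earlier results of these data known, so its count and median are a description. NFKB2, whose product is the p100 precursor of non-canonical NF-kB, measured 139.8, 177.7, 86.55 and 83.57 CPM in treated cultures, against 109.4, 112.1, 36.79 and 37.30 CPM in controls. Each treated culture was above the control of its number, and replicates 1 and 2 were higher than 3 and 4 in both groups (log2 change 0.85, SE 0.16, edgeR with block, adjusted p = 0.000797). NFKB1 (0.70), SOCS3, an inhibitor of JAK signalling (0.74), and the interferon-gamma receptor chain IFNGR2 (0.58) rose too (edgeR with block, adjusted p = 0.00186, 0.00531 and 0.00727), as did RELB, RELA, STAT2, JAK1 and USP18. TYK2 (0.07) and the other chain of that receptor, IFNGR1 (-0.09), did not pass. Without the block no gene of this or any other list was called in edgeR. With the set term in place of the block, 6 of the 17 were called higher, and without replicate 3 5 were. With that term NFKB2, NFKB1, SOCS3, IFNGR2 and RELB kept their calls. RELA, STAT2, JAK1 and USP18 lost theirs (adjusted p = 0.0892, 0.0508, 0.0731 and 0.0574, edgeR). RELB, RELA, STAT2, JAK1 and USP18 were named after their values were seen.

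The interferons themselves were scarce. Of 9 listed, 3 had enough counts to test and none passed in edgeR with the block (0 at an unadjusted p below 0.05; DESeq2 with the block gave none of them an adjusted p): over the 4 libraries of a group, IFNL1 summed to 134 counts in treated cultures and 79 in controls, IFNE to 84 counts in treated cultures and 103 in controls, and IFNB1 to 59 counts in treated cultures and 43 in controls. IFNG and IFNA2 had 0 counts in every library. None of 13 transactivators and DNA-binding partners passed in edgeR with the block (median 0.17; 2 at an unadjusted p below 0.05, 0 in DESeq2 with the block). NLRC5, the class I transactivator, measured 54.47, 58.43, 55.75 and 44.47 CPM in treated cultures, against 42.27, 65.15, 29.16 and 38.16 CPM in controls. The treated cultures lay inside the range of the controls (log2 change 0.34, edgeR with block, adjusted p = 0.145). IRF1, an interferon-induced activator of class I promoters, had a value of 0.19, IRF7 0.24 and NFYB -0.34, none past the test. NLRC5 and IRF1 were named after their values were seen.

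**Figure D4:**
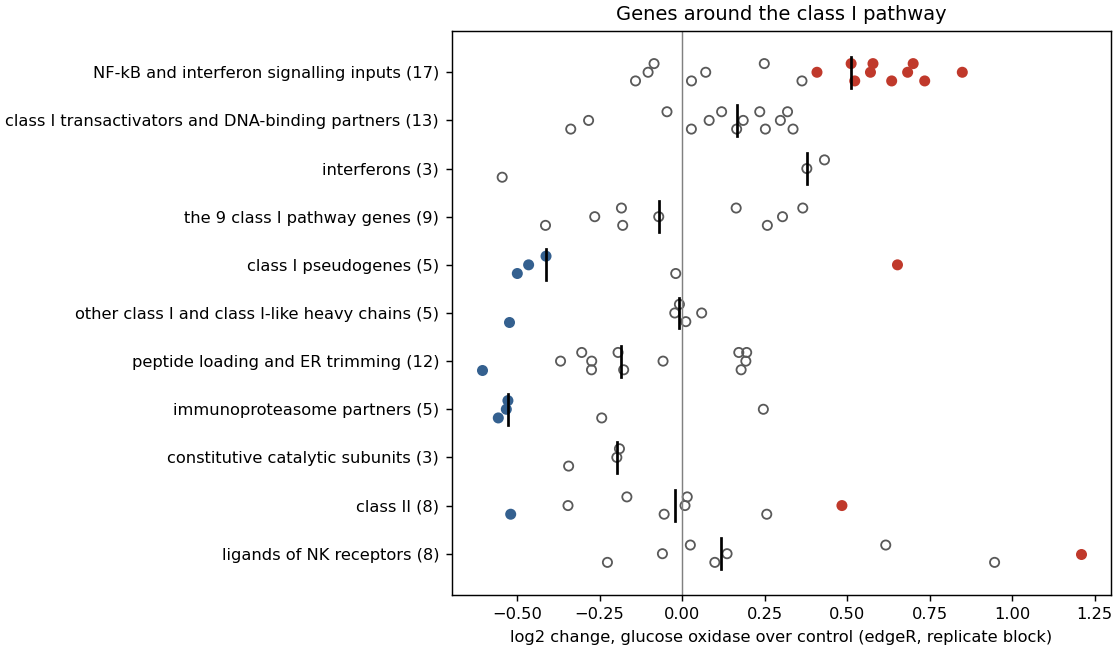
Log2 change, treated over control (edgeR with block), of the genes tested in each list, with the 9 class I genes among them; the number tested stands after each name. Filled symbols passed an adjusted p of 0.05 (red higher, blue lower), open ones did not, and black bars are list medians. The genes of NF-kB and interferon signalling, which include inhibitors, lie mostly to the right. The immunoproteasome partners lie mostly to the left, and all 9 class I genes are open.

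On the side of peptide supply, 3 of 5 immunoproteasome partners fell and none rose (edgeR with block), where 14.5% of all tested genes were called. This list too was chosen with earlier results of these data known, and its calls depended on the fit, as given below. PSMB10, the remaining catalytic subunit of the immunoproteasome, measured 74.33, 52.60, 74.95 and 72.77 CPM in treated cultures, against 108.4, 100.5, 107.6 and 79.74 CPM in controls. All treated cultures lay below all controls (log2 change -0.53, SE 0.15, edgeR with block, adjusted p = 0.0155). POMP, the proteasome assembly chaperone, fell by 0.56 and PSME2, a subunit of the PA28 activator, fell by 0.53 on the log2 scale (edgeR with block, adjusted p = 0.0179 and 0.0251). PSME1 (-0.24) and PSME3 (0.25) did not pass, and neither did any of the 3 constitutive catalytic subunits (PSMB7 -0.20, PSMB5 -0.34; median -0.20, 1 at an unadjusted p below 0.05 in edgeR with the block, 0 in DESeq2 with the block). Leaving out replicate 2 or replicate 3, or using the set term, left 0 of the 5 called, and without replicate 1 there was 1. With total-count scaling 1 of 5 was called lower.

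Among 12 genes of peptide loading and trimming, 1 fell and none rose, a share below the 14.5% called among all genes. This was TAPBPL, the tapasin-related peptide editor, with 10.35, 9.002, 14.28 and 13.61 CPM in treated cultures, against 18.80, 20.41, 17.15 and 14.85 CPM in controls. The groups did not overlap (log2 change -0.61, SE 0.17, edgeR with block, adjusted p = 0.0167), whereas tapasin itself had a value of 0.26. With total-count scaling TAPBPL did not pass (edgeR with block, adjusted p = 0.0989). The chaperones CANX (0.19) and HSPA5 (0.18) did not pass. Of 5 further class I and class I-like heavy chains tested, of 7 listed, HFE, which binds beta-2-microglobulin and acts in iron sensing, fell by 0.52 on the log2 scale (edgeR with block, adjusted p = 0.0329), a call lost with the set term (adjusted p = 0.0801 in edgeR) and with total-count scaling (adjusted p = 0.123 in edgeR with block), and the other four, HLA-F (0.06) among them, did not pass. Of 5 class I pseudogenes, HLA-L rose (0.65) and HLA-V, HLA-K and HLA-H fell (-0.50, -0.46 and -0.41; edgeR with block, adjusted p of 0.0144 to 0.0460 for the 4), while HLA-J (-0.02) did not pass, and with the set term only 1 of the calls was left, HLA-V. With total-count scaling only that of HLA-L was left (edgeR with block). The blocked edgeR fit called 14.5% of all tested genes. All of them are uncertain because their reads resemble those of other HLA genes.

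Of 8 class II genes tested, of 14 listed, the invariant chain CD74 rose (0.48) and the protease CTSS, which trims it, fell by 0.52 on the log2 scale (edgeR with block, adjusted p = 0.0213 and 0.0156), and HLA-DPB1 (-0.35) and HLA-DPA1 (-0.17) did not pass. With the set term neither CD74 nor CTSS passed (adjusted p = 0.0698 and 0.0678, edgeR), and with total-count scaling CTSS did not (adjusted p = 0.0925, edgeR with block). Of 8 ligands of natural killer receptors, 1 rose, a share near the 14.5% called among all genes. This was ULBP1, a ligand of the activating receptor NKG2D, with 27.14, 31.71, 9.915 and 8.099 CPM in treated cultures, against 17.51, 24.34, 1.549 and 2.163 CPM in controls. Every treated culture was above the control of its number, and replicates 3 and 4 were low in both groups (log2 change 1.21, SE 0.23, edgeR with block, adjusted p = 0.00121). The fitted value was 0.49 for replicates 1 and 2, and for replicates 3 and 4 it was 2.27 (adjusted p of the difference 0.0657, edgeR). MICB (0.14) and MICA (-0.23) did not pass.

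The authors' deposited table, from their own comparison, called 36 genes higher and 40 lower. None of the 9 genes was among them, with adjusted p-values in that table from 0.513 for TAP2 to 0.941 for HLA-C. In the authors' deposited table the log2 fold change was 0.37 for TAP2 and -0.38 for B2M.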

How the data were processed

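The submitters' processing notes name DESeq2 1.20.0, GRCh38.p13 as the build, featureCounts 1.5.0-p3 and HISAT2 2.0.5. Nothing in these sources gives the strand setting. The authors deposited raw whole-number counts for each gene. The deposited FPKM values divide them by gene length, the summed annotated exons in bases (a score in the deposited table), and by library size. The authors' comparison table holds a normalised signal as group means, a log2 fold change and a p-value with its adjusted value.

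Counts were tested with edgeR 4.0.16 in R 4.3.3 (quasi-likelihood test, TMM, filterByExpr, Benjamini-Hochberg over 17413 genes), without and with the replicate number as a block, and with DESeq2 1.42.0. Permutation tests used scipy 1.17.1. The edgeR, DESeq2 and interaction steps were first tested on simulated counts. CPM values are TMM-normalised. Errors are SD over 4 libraries. The labels name biological replicates and the series design independent experiments, without saying that equal numbers share one.

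The same-number libraries deviated together (correlation across genes 0.532, 0.678, 0.590 and 0.503, all over 0.1), and the blocked fit is printed. Libraries of unequal number within a replicate set also did: 0.468 (treated 1, control 2), 0.443 (treated 2, control 1) and 0.453 (treated 3, control 4). The correlation of control 3 was higher with treated 4 (0.652) than with treated 3. Between replicates 1 and 2 and replicates 3 and 4 it was -0.678 to -0.402. That division alone can put equal numbers over 0.1, so the check does not show that they are pairs. Chi-square per degree of freedom between libraries of a group was 9.98 to 227, so none was a copy of another.

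The 9 genes, the lists and the division of replicates were chosen with earlier results of these data known. Each list's named genes are up to 4 past the blocked test by smallest p and up to 2 others by highest CPM; further ones are given as named later. A further heavy chain and a signalling gene are counted and not reported here. Alternatives were other scalings, no filter, no or other blocks, a correction for length and each replicate left out.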

Additional observations from a re-analysis of the deposited data

Results flagged for a closer look

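Among the 18 groups of 4 libraries formed by the 9 genes, 1 had a library far from the others. TAPBP measured 31.04 CPM in control 3, while the other controls lay between 37.82 and 38.64 CPM, so the gap to its nearest neighbour took up most of the range of the controls. Chance alone flags about 5% of such groups.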

How the results depend on the processing

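With the replicate block, edgeR called 1308 genes higher and 1213 lower; without it, 0 and 0. The set term gave 648 and 534. Without the block, DESeq2 called 36 and 40, and edgeR without a filter on low counts 18 and 16. DESeq2 with the block called 1222 and 1308. Total-count scaling with the block called 535 lower. Leaving out each replicate in turn with the block gave 917, 864, 593 and 978 higher and 717, 638, 507 and 908 lower in edgeR, and 727, 505, 421 and 958 higher and 909, 556, 354 and 1021 lower in DESeq2 (without replicates 1, 2, 3 and 4), where fewer samples entered.

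Of the 9 genes, 1 was called higher with total-count scaling (TAP2) and 1 in DESeq2 with the block without replicate 2 (TAP1). B2M, 1 gene, was called lower in DESeq2 with the block, and also without replicate 1 (adjusted p = 0.0353) and without replicate 4 (adjusted p = 0.0321); the number lower across the leave-outs was 0 to 1. HLA-C turned to 0.0394 (total counts), 0.0369 (length corrected) and 0.009 (without replicate 1) with the block, and to 0.0235 (without treated replicate 3) and 0.2381 (without control replicate 1) without it, where its leave-outs ran from -0.3393 to 0.2381. HLA-E turned to -0.0053 without treated replicate 1 and its leave-outs reached 0.3361. Calls on the signalling list were 6 with the set term and 5 to 8 with a replicate left out; on the immunoproteasome partners they were 0 with the set term and 0 to 2 with a replicate left out. The cause of these shifts was not tested. With TMM scaling the block changed the call of none of the 9 genes in edgeR; with total counts TAP2 was called with the block (adjusted p = 0.0336) and not without it (adjusted p = 0.857). DESeq2 with the block and a replicate left out, and the list counts by setting, were chosen after seeing the data. At this depth 6 of 9 interferons and 6 of 14 class II genes had too few counts to test. Intervals of the 9 genes reached past 2-fold for B2M in most fits without the block, for HLA-B and HLA-C in some that left out 1 library, and for TAP2 with total counts without the block. With the block, leaving out a replicate gave -0.31 to -0.11 for HLA-B, 0.08 to 0.22 for HLA-E and -0.50 to -0.26 for B2M.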
